A study of Mus musculus with 4 samples.

Results

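The genes of the cytosolic ribosome and of translation initiation were followed in quadriceps muscle of 4 mice. The members were all probe sets whose identifier, an Entrez gene number, belongs to a gene named Rpl or Rps and a number, or Eif1 to Eif6. S6 kinases, Eif2ak kinases, Eif2s3x, Eif2s3y, Eif1ax, pseudogenes named as such and Rps19bp1, a binding protein, were left out. The 65 members reported are of the 16492 probe sets tested, 1 for each gene, and 22 were ribosomal protein genes and 43 initiation factor genes. Of 84 protein-coding ribosomal protein genes that fit the name rule in RefSeq, 21 were analysed here, and of 49 initiation factor genes 43 were. The member not counted in the 21 is Rps4l, which RefSeq lists as a transcribed pseudogene. Rpl3, the general form of a large subunit protein, and most other ribosomal protein genes have no probe set among the deposited values. Ribosomal protein genes have many near-identical pseudogene copies, and signal from such copies in these probe sets was not tested.

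The mdm mutation, known as muscular dystrophy with myositis, is a small deletion in the N2A region of titin. The strain label of all 4 animals was B6C3Fe a/a-Ttnmdm/J. Of them, 2 carried a mutation in titin (Ttn), the spring protein of the sarcomere, and are called mdm mutant here, and 2 were labelled Titin wild type. The sources used here do not give age, sex or the number of mutant alleles, and neither group had a treatment on its labels. Each mouse gave 1 Affymetrix array of total quadriceps RNA, and the values are log2 RMA values, a background-corrected and quantile-normalised signal, from 5.42 to 14.98 (median 7.28 per array). A tissue sample mixes cell types, so fewer cells of a type and less RNA per cell cannot be told apart.

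The ribosome is built of a small and a large subunit, each made of RNA and many different proteins, most of them encoded by genes whose mRNAs start with a pyrimidine tract that ties their translation to nutrient and growth signals. Initiation factors bring the small subunit, the initiator tRNA and the mRNA together. eIF4E binds the mRNA cap, eIF4A unwinds the mRNA, eIF3 holds the small subunit, eIF2 delivers the initiator tRNA and is reloaded by eIF2B, and eIF6 keeps the large subunit apart until it is ready. Striated muscle also expresses Rpl3l, a paralogue that takes the place of Rpl3 in the ribosome of mature fibres.

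Bases around the annotated start are shown for 9 members, to display the pyrimidine tract in genes that carry it and in genes that do not. Each window runs from 15 bases before to 15 bases after the start listed in RefSeq (GRCm38.p6), 5′ to 3′ on the strand of the gene, and the capitals mark the longest unbroken run of C and T.
Rps6, chr4:86857353-86857382, minus strand: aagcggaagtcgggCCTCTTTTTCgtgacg
Rps9, chr7:3704026-3704055, plus strand: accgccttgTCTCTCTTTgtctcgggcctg
Rpl13a, chr7:45128731-45128760, minus strand: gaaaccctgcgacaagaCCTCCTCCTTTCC
Rpl14, chr9:120571502-120571531, plus strand: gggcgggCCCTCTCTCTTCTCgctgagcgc
Eif3l, chr15:79075208-79075237, plus strand: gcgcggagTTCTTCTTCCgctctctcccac
Eif3f, chr7:108934400-108934429, plus strand: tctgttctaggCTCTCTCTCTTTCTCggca
Rpl3l, chr17:24727811-24727840, plus strand: gagtgttctagctctgtcatttgaCCTCTg
Eif4a1, chr11:69672409-69672438, minus strand: acaaagtaacgTCacgtcgagttgcagagc
Eif4e, chr3:138526176-138526205, plus strand: tgCTaaaacagcagcggaggcggagggagc
Among the 17 ribosomal protein members with a RefSeq promoter entry the longest run had a median of 9.0 bases, against 4.0 among all 27025 genes of that table. A run of at least 8 bases was found in 9 of the 17 (52.9%), in 5 of 33 initiation factor members (15.2%) and in 11.9% of all genes. Rpl14, Rpl13a, Rps6 and Rps9, shown with long tracts, encode ribosomal proteins, and Eif3l and Eif3f encode eIF3 subunits. Rpl3l had a run of 5 bases, and Eif4a1 and Eif4e had runs of 2. A short run was not particular to Rpl3l among the ribosomal protein members. Rpl22 and Rpl23, not shown, had runs of 4 and 3 bases, and Rpl15 had the longest, of 17. Annotated starts can lie some bases from the real ones, and these windows are a description.

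Ribosomal protein genes were mostly higher in mdm mutant muscle by small amounts. Of the 22 members, 7 rose, 1 fell and 14 missed the threshold of the test, with a median difference of 0.29 on the log2 scale against −0.02 over all probe sets tested. Over all probe sets 6.46% were called higher and 6.36% lower, while 31.8% of the ribosomal protein genes were called higher. A call is an adjusted p under 0.05 in limma, fitted and adjusted with Benjamini-Hochberg over the 16492 probe sets, and every difference is the mutant mean minus the wild type mean, ± its standard error, with n = 2 mice in each group. The mutant mice stood above both wild type mice in 19 ribosomal protein genes and below them in 2, where 26.7% and 34.2% of all probe sets did so (60.9% together). The difference was positive in 20 of 22, and the 2 exceptions were Rpl15 and Rpl3l. Over all 16492 probe sets it was positive in 7318.

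**Figure D1:**
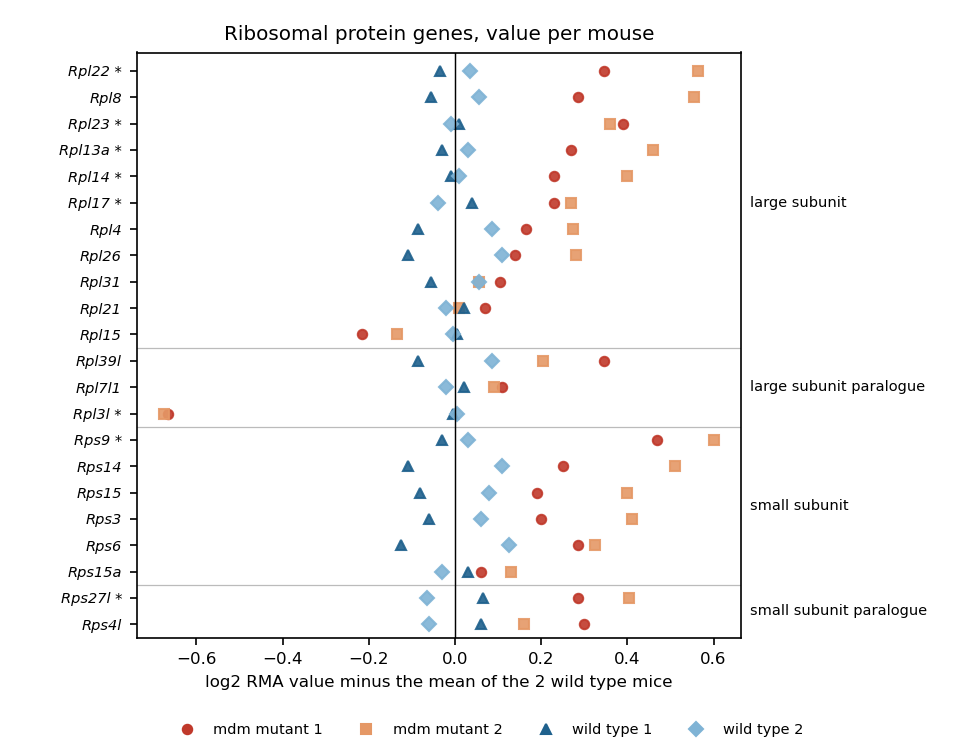
Value of each ribosomal protein gene in each of the 4 mice, as log2 RMA value minus the mean of the 2 wild type mice (x axis), with genes in rows by subunit and an asterisk on those past the test. Nearly all mutant points lie right of the wild type points, while Rpl3l lies at −0.67 and Rpl15 at −0.17.

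The gene that fell was Rpl3l (Entrez 66211), the muscle paralogue of the large subunit protein uL3, which lies near the catalytic centre of the ribosome. Rpl3l read 11.39 and 11.38 in mutant muscle and 12.05 and 12.06 in wild type muscle. The groups stood far apart relative to the spread within them, which had an SD of 0.01 in each. The difference was −0.67 ± 0.05, a 1.59-fold lower level (95% interval −0.80 to −0.55, adjusted p = 0.00514 by limma). Rpl3l was the only one of the 18 called members that passed with any 1 mouse left out, with adjusted p between 0.0213 and 0.0317 and differences between −0.68 and −0.66.

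The 250 bases before the start of Rpl3l are shown because this gene fell while others of its family rose, and those of Eif3d because it was among the eIF3 genes that rose. Capitals mark matches, on either strand, to CCGGAAG, the core bound by ETS family factors, or to CANNTG, the E-box bound by basic helix-loop-helix factors.
Rpl3l, chr17:24727576-24727825, plus strand: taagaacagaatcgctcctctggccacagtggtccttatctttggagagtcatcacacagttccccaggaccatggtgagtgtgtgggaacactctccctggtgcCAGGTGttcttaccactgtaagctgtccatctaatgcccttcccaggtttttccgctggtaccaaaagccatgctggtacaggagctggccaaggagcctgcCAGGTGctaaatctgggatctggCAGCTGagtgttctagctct
Eif3d, chr15:77970825-77971074, minus strand: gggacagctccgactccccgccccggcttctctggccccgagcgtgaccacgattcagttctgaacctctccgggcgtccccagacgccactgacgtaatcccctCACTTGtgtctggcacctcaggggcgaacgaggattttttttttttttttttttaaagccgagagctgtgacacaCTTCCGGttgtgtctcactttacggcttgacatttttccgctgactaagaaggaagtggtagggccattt
The Rpl3l window held 3 matches to CANNTG, a sequence found in 66.0% of all promoters of this length, and 0 to CCGGAAG. The Eif3d window held 1 match to CCGGAAG and 1 to CANNTG. The ETS core was found in 3 of the 17 ribosomal protein and 8 of the 33 initiation factor promoters, against 7.05% of all promoters. The E-box was found in 8 of the 17 (47.1%) and 17 of the 33 (51.5%), below the 66.0% of all promoters. These matches describe letters and no binding was measured.

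Rps9 (Entrez 76846), a protein of the small subunit near its mRNA entry channel, had the largest rise among ribosomal protein genes. It read 12.76 and 12.89 in mutant muscle and 12.26 and 12.32 in wild type muscle, without overlap. The difference was 0.54 ± 0.07, or 1.45-fold (95% interval 0.37 to 0.70, adjusted p = 0.0123). Without wild type 1 or wild type 2 its adjusted p was 0.0650 and 0.0574. Rps6, the substrate of the S6 kinases, read 9.01 and 9.05 in mutant muscle and 8.60 and 8.85 in wild type muscle and did not pass (0.30 ± 0.09, adjusted p = 0.0969). Of the 6 small subunit genes reported 1 rose (16.7%, against 6.46% of all probe sets) and 5 did not pass. All 6 had mutant values above both wild type values, where 26.7% of all probe sets did. Their differences ran from 0.09 to 0.54 with a median of 0.30.

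In the large subunit 5 of 11 genes rose and 0 fell by limma, with 6 not past the test. The share called higher was 45.5%, against 6.46% over all probe sets. Rpl22 (Entrez 19934), a protein that is dispensable for bulk translation, read 9.88 and 10.10 in mutant muscle and 9.50 and 9.57 in wild type muscle (0.46 ± 0.09, adjusted p = 0.0305). Rpl23, a regulator of the p53 ligase Mdm2 when free of the ribosome, read 7.99 and 7.96 against 7.61 and 7.59 (0.37 ± 0.05, adjusted p = 0.0154). Mutant values of both genes lay above all wild type values. Rpl13a, known as the subunit of an interferon-induced silencing complex, read 11.71 and 11.90 against 11.41 and 11.47 (0.36 ± 0.08, adjusted p = 0.0402, and 0.0561 with limma's trend and robust moderation). Rpl14 read 9.33 ± 0.12 against 9.01 ± 0.01 (mean ± SD, n = 2) (0.31 ± 0.07, adjusted p = 0.0485), and Rpl17 read 7.07 and 7.11 against 6.88 and 6.80 (0.25 ± 0.06, adjusted p = 0.0454). These last 3 sat close to the threshold. Rpl17 also lay below the array median of 7.28 and was left out by the filter on dim probe sets. Rpl8 differed by 0.42 ± 0.10 with an adjusted p of 0.0552, and Rpl15 was the large subunit gene with both mutant mice below the wild type mice, at 9.84 and 9.92 against 10.06 and 10.05 (−0.17 ± 0.05, adjusted p = 0.102). With 1 mouse left out, the adjusted p of the 5 genes reached values between 0.0767 for Rpl23 and 0.173 for Rpl17.

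Among the paralogues and Rps4l, Rps27l rose, Rpl3l fell and 3 missed the threshold. Rps27l (Entrez 67941), a p53-induced relative of Rps27, read 12.13 and 12.25 in mutant muscle and 11.91 and 11.78 in wild type muscle and rose (0.34 ± 0.07, adjusted p = 0.0423, 0.0660 with trend and robust moderation, up to 0.163 with 1 mouse left out). Rpl39l, a relative of Rpl39 best known from the male germ line, read 7.63 and 7.49 against 7.20 and 7.37 and did not pass (0.28 ± 0.08, adjusted p = 0.0898). Rpl7l1, known as a factor of large subunit assembly, did not pass either, at 0.10 ± 0.05 (95% interval −0.03 to 0.23, adjusted p = 0.275). Rps4l, the transcribed pseudogene, stood at 0.23 ± 0.07 (adjusted p = 0.102). The general forms Rpl7, Rpl39 and Rps27 have no probe set among the deposited values.

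**Figure D2:**
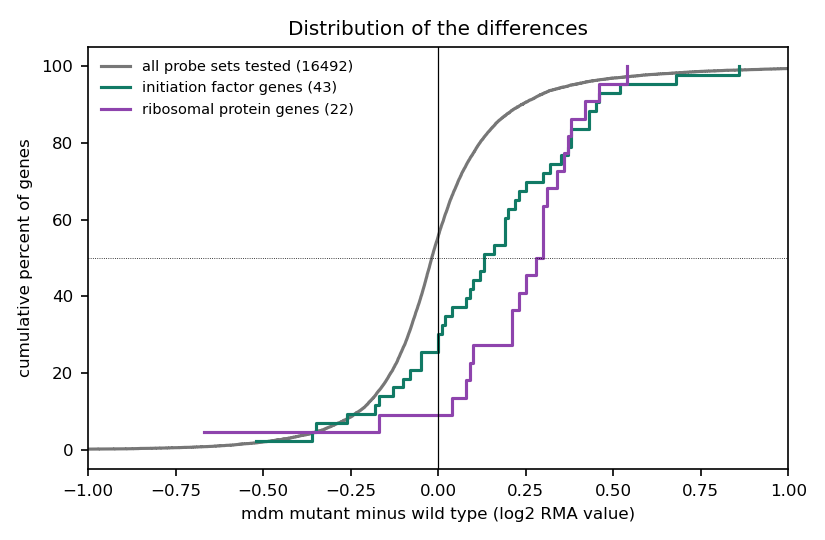
Cumulative percent of genes (y axis) against the difference between mdm mutant and wild type in log2 RMA value (x axis), cut at 1 on either side, for ribosomal protein genes, initiation factor genes and all probe sets tested. The curves cross the 50% line at 0.29, 0.13 and −0.02.

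Of the 43 initiation factor genes, 8 rose, 2 fell and 33 missed the threshold, with a median difference of 0.13. The share called higher was 18.6% against 6.46% over all probe sets, and the 2 lower calls, Eif4e and Eif2d, compare with 6.36% of all probe sets called lower. The mutant values lay above both wild type values in 28 and below them in 9, where 26.7% and 34.2% of all probe sets did so. By complex, differences were positive in all 11 measured eIF3 subunits and all 4 genes of the eIF1 and eIF1A group. They were negative in 3 of 5 eIF2B genes, of which Eif2b3 turned positive with the arrays centred on hybridization controls (−0.10 to 0.01). Over all 16492 probe sets 7318 differences were positive and 9174 negative, so the eIF2B signs lie near the share over all.

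**Figure D3:**
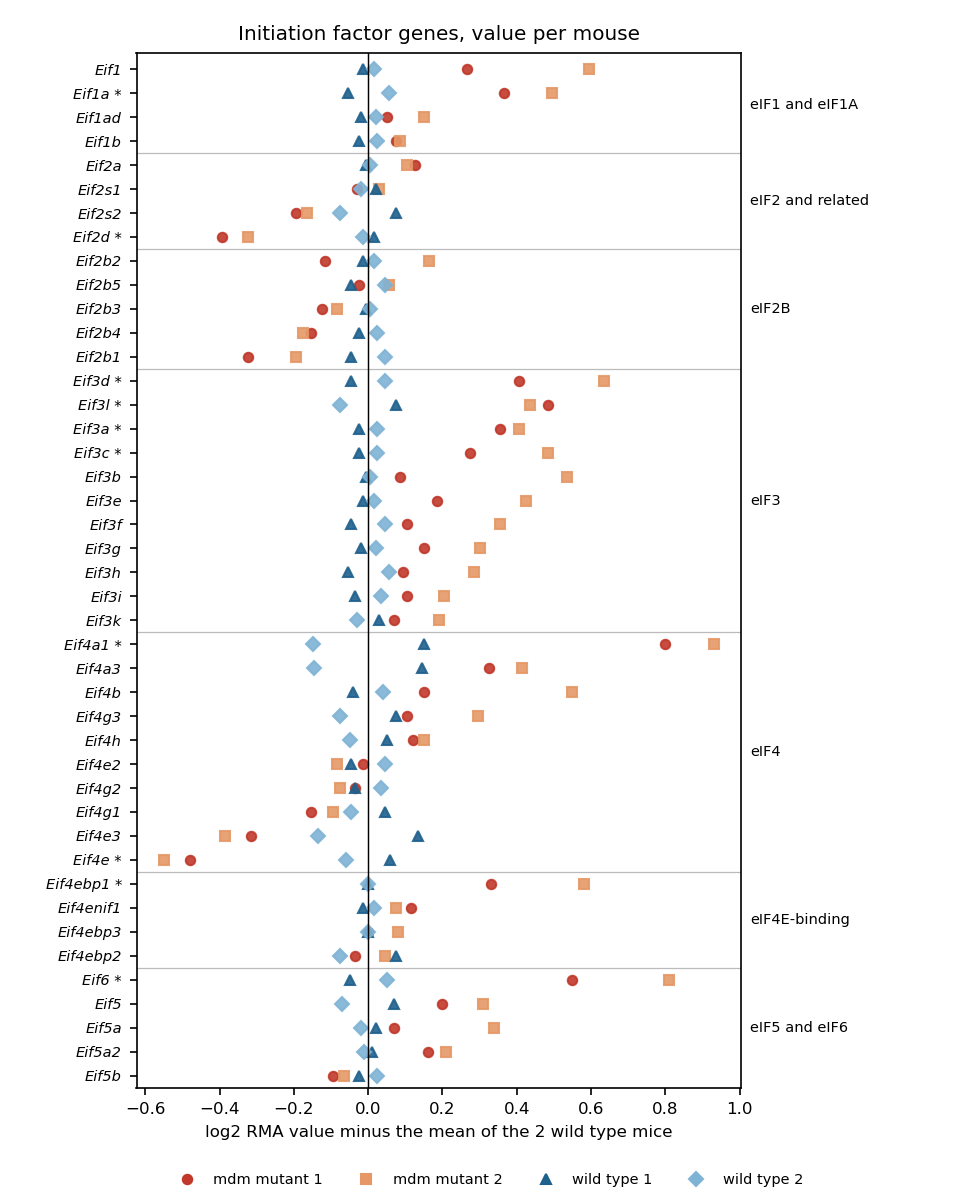
Value of each initiation factor gene in each of the 4 mice, as log2 RMA value minus the mean of the 2 wild type mice (x axis), with genes in rows by complex and an asterisk on those past the test. The eIF3 rows all lie right of 0 in both mutant mice, and Eif4a1 and Eif4e lie at opposite ends of the eIF4 rows.

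In the eIF4 group, which recruits mRNA, the helicase and the cap-binding protein moved in opposite directions. Eif4a1 (Entrez 13681), the main helicase, read 11.24 and 11.37 in mutant muscle and 10.59 and 10.29 in wild type muscle. It rose by 0.86 ± 0.11, or 1.82-fold (95% interval 0.58 to 1.14, adjusted p = 0.0134), the largest difference of all 65 members. Its mutant values lay well above both wild type values, which themselves differed by more than the mutant ones, and it did not pass without mdm mutant 2 (adjusted p = 0.0651). Eif4e (Entrez 13684), the cap-binding protein, read 7.91 and 7.84 in mutant muscle and 8.45 and 8.33 in wild type muscle. It fell by 0.52 on the log2 scale (SE 0.06), or 1.43-fold (95% interval −0.68 to −0.36, adjusted p = 0.0125). Without mdm mutant 2 or wild type 1 its adjusted p was 0.0608 and 0.0582. Eif4a1 relative to Eif4e, a pair picked after the values were seen, changed by 1.38 on the log2 scale, with mutant mice at 1.28 and 1.48 and wild type mice at 0.09 and −0.09 relative to their mean. The pair joins the highest and lowest differences of the eIF4 group. An exact permutation test gave p = 0.333, the smallest that 2 mice against 2 can give.

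The close relatives of these genes that were analysed did not pass, and Eif4a2, a relative of Eif4a1, has no probe set among the deposited values. Eif4a3, the helicase of the exon junction complex, read 10.28 and 10.37 against 10.10 and 9.81 (0.37 ± 0.11, adjusted p = 0.0833). Eif4e3, a cap-binding relative, read 9.21 and 9.14 against 9.66 and 9.39 (−0.35 ± 0.10, adjusted p = 0.0743), and Eif4e2, the cap-binding repressor, stood at −0.05 ± 0.06 (95% interval −0.20 to 0.10). The signs of both Eif4a3 and Eif4e3 were those of Eif4a1 and Eif4e. Among the scaffolds, Eif4g1 differed by −0.13 ± 0.06, Eif4g2 by −0.05 ± 0.06 and Eif4g3 by 0.19 ± 0.09, with adjusted p between 0.208 and 0.557. The helicase cofactors Eif4b and Eif4h stood at 0.35 ± 0.13 and 0.13 ± 0.06 (adjusted p = 0.153 and 0.197).

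Of the 3 inhibitory eIF4E-binding proteins 1 rose. Eif4ebp1 (Entrez 13685), which holds eIF4E away from the scaffold until mTORC1 phosphorylates it, read 10.27 and 10.52 in mutant muscle and 9.94 and 9.94 in wild type muscle. It rose by 0.45 ± 0.09 (1.37-fold, adjusted p = 0.0370, up to 0.140 with 1 mouse left out), and the mutant mice differed by more than the wild type mice. Eif4ebp2 stood at 0.00 ± 0.07 (95% interval −0.18 to 0.18) and Eif4ebp3 at 0.04 ± 0.05 (95% interval −0.10 to 0.18). Eif4enif1, which carries eIF4E into the nucleus, stood at 0.09 ± 0.05.

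**Figure D4:**
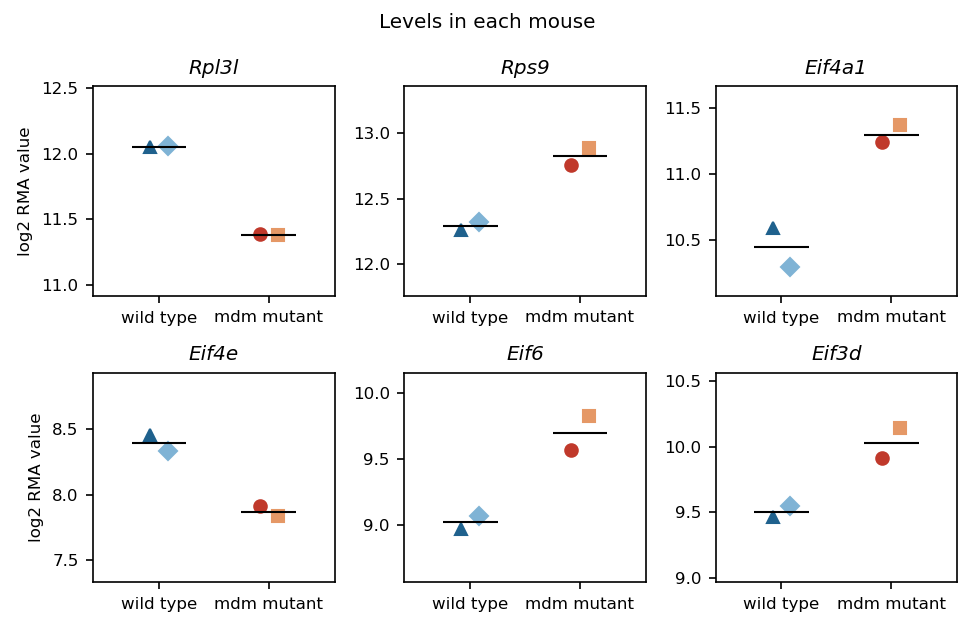
Log2 RMA value (y axis, the same span in each panel) of 6 members in each mouse, with wild type mice in blue, mdm mutant mice in red and orange, and the group mean as a line. Rpl3l and Eif4e are lower and Rps9, Eif4a1, Eif6 and Eif3d higher in both mutant mice.

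The eIF3 complex had 4 genes that rose among 11, with 0 that fell, and 7 that did not pass the test. The share called higher was 36.4%, against 6.46% over all probe sets. The range of differences was 0.13 to 0.52 with a median of 0.30. Eif3d (Entrez 55944), a subunit that can itself bind the cap of some mRNAs, read 9.91 and 10.14 in mutant muscle and 9.46 and 9.55 in wild type muscle (0.52 ± 0.09, 1.44-fold, adjusted p = 0.0252). Eif3l read 9.80 and 9.75 against 9.39 and 9.24 (0.46 ± 0.07, adjusted p = 0.0193). Both genes, and the other 9 of the complex, had mutant values above both wild type values, where 26.7% of all probe sets did. The core scaffold subunits Eif3a and Eif3c read 8.99 and 9.04 against 8.61 and 8.66 (0.38 ± 0.05, adjusted p = 0.0166) and 10.15 and 10.36 against 9.85 and 9.90 (0.38 ± 0.08, adjusted p = 0.0415). Eif3b, the third core scaffold subunit, read 8.99 and 9.44 against 8.90 and 8.91 and did not pass (0.32 ± 0.14, adjusted p = 0.214). In 10 of the 11 genes mdm mutant 2 read higher than mdm mutant 1, and relative to the wild type mean the complex had a median of 0.15 in mdm mutant 1 and 0.41 in mdm mutant 2. With 1 mouse left out the adjusted p of the 4 genes reached 0.0726 for Eif3l, 0.0787 for Eif3a, 0.110 for Eif3d and 0.156 for Eif3c.

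Eif6 (Entrez 16418), the factor that keeps the large subunit from joining too early, had the next largest rise of the initiation factors after Eif4a1. It read 9.57 and 9.83 in mutant muscle and 8.97 and 9.07 in wild type muscle, without overlap. The difference was 0.68 ± 0.10, 1.6-fold (95% interval 0.44 to 0.93, adjusted p = 0.0167), and the adjusted p was 0.0798 without wild type 1 and 0.0670 without wild type 2. In the same group Eif5, the GTPase activator of eIF2, stood at 0.25 ± 0.07 (adjusted p = 0.0878). Eif5a, now also known as an elongation factor, stood at 0.20 ± 0.10, its relative Eif5a2 at 0.19 ± 0.05 and the subunit joining factor Eif5b at −0.08 ± 0.05, with adjusted p of 0.229, 0.0730 and 0.380.

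Among genes of start codon choice and of eIF2, 1 rose and 1 fell. Eif1a (Entrez 13664), which encodes an eIF1A that helps the small subunit scan the mRNA, read 8.38 ± 0.09 in mutant and 7.95 ± 0.08 in wild type muscle (mean ± SD, n = 2) and rose (0.43 ± 0.07, adjusted p = 0.0235, up to 0.0974 with 1 mouse left out). Eif1, its partner in scanning, read 12.86 and 13.19 against 12.58 and 12.61 and did not pass (0.43 ± 0.11, adjusted p = 0.0623), and Eif1b stood at 0.08 ± 0.05. For Eif1 mdm mutant 2 lay further above the wild type mice than mdm mutant 1. Eif2d (Entrez 16865), a factor that can place tRNA on the small subunit without GTP and acts in subunit recycling, read 8.53 and 8.60 in mutant muscle and 8.94 and 8.91 in wild type muscle. It fell by 0.36 on the log2 scale (SE 0.05, 1.28-fold, adjusted p = 0.0188, up to 0.0881 with 1 mouse left out). Eif2s2, the beta subunit of eIF2, stood at −0.18 ± 0.07 (adjusted p = 0.150). None of the 5 eIF2B genes passed, and their differences ran from −0.26 for Eif2b1 (adjusted p = 0.0669) to 0.02 for Eif2b2 (adjusted p = 0.896). Eif2b2 and Eif2b5 turned negative without mdm mutant 2 (−0.11 and −0.03), and Eif2b5 also without wild type 1 (−0.04).

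Fewer member calls passed with 1 mouse left out. Of the 18 called, 13 passed without mdm mutant 1, and 3 passed without mdm mutant 2 (Rpl3l, Rps9 and Eif6), 3 without wild type 1 (Rpl3l, Eif3l and Eif4a1) and 3 without wild type 2 (Rpl3l, Eif4a1 and Eif4e), with the sign of all 18 kept each time. Rpl17, Rpl23, Rps27l and Eif2d passed in 0 of these 4 fits. Without variance moderation 0 of the 18 passed, and 11 had an unadjusted p under 0.05. In that fit 14 of all 65 members had an unadjusted p under 0.05, as did 3286 of all 16492 probe sets. The 18 were picked by the moderated fit of the same arrays, so the 11 are not a separate test. With the arrays centred on 18 hybridization control probe sets, whose mean was 11.01 and 10.99 in mutant muscle and 11.10 and 11.12 in wild type muscle, the median of all probe sets moved by 0.11, from −0.02 to 0.09. Under that scaling 16 ribosomal protein genes rose and 1 fell, and 18 initiation factor genes rose and 2 fell. Their medians were 0.40 and 0.24, and all 18 calls kept their direction. The scaling also raised the higher calls over all 16492 probe sets, with 2829 higher and 603 lower against 1066 and 1049 without it.

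The mutant mice differed from each other. In 50 of the 65 members mdm mutant 2 read higher than mdm mutant 1, against 8129 of all 16492 probe sets. Relative to the wild type mean the median member stood at 0.12 in mdm mutant 1 and at 0.27 in mdm mutant 2. Macrophage markers differed along with them. Of 20 such markers 13 rose and 0 fell, where 6.46% of all probe sets were called higher and 6.36% lower. Their summed linear level was 12880 and 16350 in mdm mutant 1 and 2 and 7837 and 7313 in wild type muscle. Lgals3, galectin 3, rose by 2.60 ± 0.19. Of 8 neutrophil markers 4 rose and 0 fell, with sums of 1864 and 2742 against 1047 and 1064. Of 10 endothelial markers 0 rose and 2 fell, with sums of 3427 and 2701 against 4013 and 3735, and of 10 fibroblast markers 1 rose and 1 fell, with sums of 37100 and 38260 against 33310 and 32520. Of 7 adipocyte markers 0 passed (sums of 17740 and 21520 against 15810 and 9341). The 12 muscle fibre markers had a median difference of 0.00 and sums between 242300 and 245300 in all mice, and the 1 that rose was desmin (Des, 0.44 ± 0.08). Most of those sums comes from values near the top of the range (highest 14.98), where quantile normalisation leaves little room for arrays to differ. The flat sums therefore do not show whether fibre content changed. No table value marks absence, so no marker was at 0. With 1 mouse left out 5 to 14 macrophage, 0 to 6 neutrophil and 0 adipocyte markers rose, except that 4 adipocyte markers did without wild type 1, and 0 to 6 endothelial markers fell. The part of these cells in the ribosomal protein and initiation factor results was not tested.

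**Figure D5:**
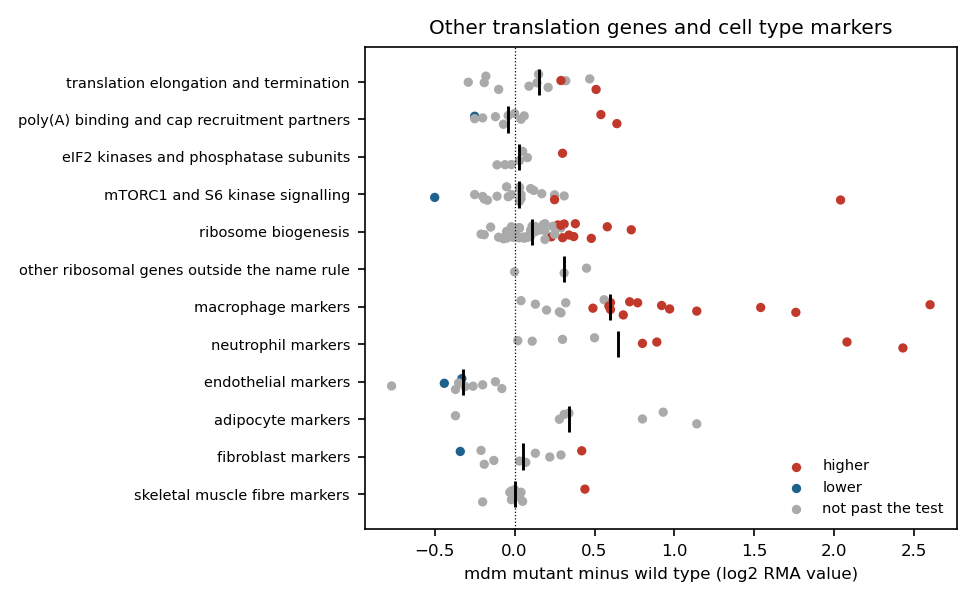
Difference between mdm mutant and wild type in log2 RMA value (x axis) of each gene in lists of other translation genes and of cell type markers (rows), with the list median as a black line and colour for calls by limma. Ribosome biogenesis calls are all higher, and macrophage markers have a median of 0.60.

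Genes that build ribosomes were partly higher. Of 48 ribosome biogenesis genes 11 rose, 0 fell and 37 missed the threshold, a share of 22.9% called higher against 6.46% over all probe sets, with a median of 0.11. Nop58, a core protein of the particles that methylate ribosomal RNA, read 8.56 and 8.72 in mutant muscle and 8.03 and 8.09 in wild type muscle (0.58 ± 0.07, adjusted p = 0.0126). Nip7 and Gnl3, a large subunit assembly factor and the nucleolar protein nucleostemin, rose by 0.48 ± 0.05 and 0.38 ± 0.05. The count of 11 was lower with any 1 mouse left out: leaving out mdm mutant 1 gave 4, leaving out wild type 1 gave 0, and leaving out either of the other mice gave 2, with 0 lower each time and medians from 0.10 to 0.13. Nop58 had an adjusted p of up to 0.0660, Nip7 of up to 0.0513 and Gnl3 of up to 0.0799 in those fits. With the hybridization controls 24 rose and 0 fell, where 2829 of all 16492 probe sets rose. Of 3 other ribosomal genes outside the name rule 0 passed, with Rplp2, a stalk protein, at 0.31 ± 0.08, Rack1, a small subunit scaffold, at 0.45 ± 0.12, and Rpsa at 0.00 ± 0.05 (adjusted p = 0.0617, 0.0762 and 0.997).

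In other parts of the pathway the share called in either direction was near that over all probe sets (12.8%) for mTORC1 and S6 kinase genes (14.3%). All calls were higher among elongation and termination genes (16.7%) and among eIF2 kinases and phosphatase subunits (14.3%), where 6.46% of all probe sets were called higher. The elongation and termination genes had a median difference of 0.15, against −0.02 over all probe sets. With so few genes called, these counts do not set any of these lists apart. The share called in either direction was 27.3% for the 11 poly(A) and cap recruitment partners. Of 12 elongation and termination genes 2 rose and 0 fell, namely Eef1b2, the exchange factor of eEF1A (0.51 ± 0.08, adjusted p = 0.0204), and the release factor Gspt1 (0.29 ± 0.07, adjusted p = 0.0486), while the release factor Etf1 stood at 0.21 ± 0.05 (adjusted p = 0.0541). Of 11 poly(A) and cap recruitment partners 2 rose and 1 fell. Mknk2, a kinase of eIF4E, read 10.75 and 10.74 in mutant muscle and 10.09 and 10.14 in wild type muscle (0.64 ± 0.05, adjusted p = 0.00605). Pdcd4, an inhibitor of eIF4A, read 9.44 and 9.46 against 8.90 and 8.93 (0.54 ± 0.05, adjusted p = 0.00740), and Paip2b fell by 0.25 on the log2 scale (adjusted p = 0.0421). The inhibitor Pdcd4 and its target Eif4a1 were both higher. Of 7 eIF2 kinase and phosphatase genes 1 rose, Ppp1r15a, which directs removal of phosphate from eIF2 (0.30 ± 0.05, adjusted p = 0.0250), with the kinases Eif2ak1 and Eif2ak4 at −0.11 ± 0.07 and 0.08 ± 0.07. Of 21 mTORC1 and S6 kinase genes 2 rose and 1 fell. Ddit4, an inhibitor of mTORC1, read 10.44 and 11.24 against 8.19 and 9.43 (2.04 ± 0.46, adjusted p = 0.0461), and the lysosomal GTPases Rragc and Rragd stood at 0.25 ± 0.05 and −0.50 ± 0.06 (adjusted p = 0.0358 and 0.0137). With any 1 mouse left out Mknk2 and Pdcd4 still passed, with adjusted p of at most 0.0347 and 0.0430. The other genes called in these lists did not pass in at least 1 such fit, with adjusted p of up to 0.0933 for Eef1b2, 0.183 for Gspt1, 0.165 for Paip2b, 0.107 for Ppp1r15a, 0.174 for Ddit4, 0.145 for Rragc and 0.0672 for Rragd. With the hybridization controls 7 elongation and termination genes rose, 5 mTORC1 and S6 kinase genes rose, Paip2b did not pass, and the median of the poly(A) and cap partners turned from −0.04 to 0.07. Over all 16492 probe sets 2829 rose with these controls, against 1066 without them.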

How the data were processed

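RNA from quadriceps was extracted with Trizol and RNeasy columns and labelled as biotinylated cRNA for Affymetrix arrays, per the labels' protocols. The deposited values are log2 expression values that the authors made with RMA, per the submitters' processing notes, with no version given. All 4 columns hold nearly the same distribution, so a shift shared by most genes would not show. There are no detection calls, and the number of arrays, not a read depth, limits the precision. Of 16553 probe sets 61 controls were left out. Symbols came from the platform annotation for 15270 probe sets (in 15250 of them the identifier is the annotated Entrez number) and, for 988 others, from RefSeq by the Entrez number in the identifier. 4 members (Eif1, Eif2s1, Eif3g and Eif4g1) were named the second way. The remaining 234 have no name here. 1 ribosomal protein gene is not reported here and enters no count of members.

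Groups followed the genotype labels. In the titles Ttn+ stands on the mutant mice and Ttn- on the wild type mice, and the source names and descriptions give the same groups as the genotype field, so the plus sign marks the mutation. Replicate numbers only name mice. The test of each difference was that of limma 3.58.1 (lmFit, then eBayes, in R 4.3.3, 2-sided, without covariates), with Benjamini-Hochberg adjustment over 16492 probe sets and 5.35 degrees of freedom per gene. The fit was tried on simulated arrays with independent genes, 200 of them changed, which checks the code and not the calls reported here. A listed gene with several probe sets was represented by the brightest. Members, lists and tests were chosen with earlier results of these data known. Named in full were Rpl3l, the 12 largest called differences in each family (fewer passed, so all reported members that passed are given), fixed paralogue sets and the 3 smallest p-values of each list of pathway genes. Comparisons planned for Rpl3 were not run, because Rpl3 has no probe set among the deposited values. The alternatives were a filter on dim probe sets, other scaling and variance models, averaging of probe sets and each mouse left out. Keeping only members named in the platform annotation was added after seeing the data. Promoter sequences are from RefSeq (GRCm38.p6, 1 entry per gene, the first listed), and 50 of 65 members matched. Python 3.11.15 and matplotlib 3.10.9 drew the figures.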

Additional observations from a re-analysis of the deposited data

How the results depend on the processing

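The direction of the ribosomal protein and initiation factor medians held under every alternative, while the counts of calls moved. Of 2115 probe sets called (1066 higher, 1049 lower), centring on the hybridization controls gave 3432 (2829 higher, 603 lower, or 82.4% higher against 50.4%), and no variance moderation gave 1 (0 higher, 1 lower). With 1 mouse left out they numbered 490 to 1182, with 287 to 637 higher and 186 to 545 lower. For ribosomal protein genes (8 called, 7 higher, 1 lower) the hybridization controls gave 17 (16 higher), trend and robust moderation 6 (5 higher, without Rpl13a and Rps27l) and no moderation 0 (0 higher, 0 lower). Leaving out 1 mouse gave 1 to 6, with 0 to 5 higher and 1 to 1 lower. For initiation factor genes (10 called, 8 higher, 2 lower) the hybridization controls gave 20 (18 higher), trend and robust moderation 11 (9 higher) and no moderation 0 (0 higher, 0 lower). Leaving out 1 mouse gave 1 to 12, with 1 to 11 higher and 0 to 1 lower. The medians of 0.29 and 0.13 became 0.40 and 0.24 with the hybridization controls and ran from 0.23 to 0.32 and 0.09 to 0.19 with 1 mouse left out. Rpl3l kept its difference of −0.67 without moderation but did not pass (adjusted p = 0.103). Of members that did not pass, Eif4e2, Eif4g2, Eif5b and Eif2b3 changed sign with the hybridization controls (0.07, 0.06, 0.03 and 0.01), Eif2b2 without mdm mutant 2 (−0.11), Eif2b5 without mdm mutant 2 and without wild type 1 (−0.03 and −0.04), and Eif4ebp2 without mdm mutant 2 and without wild type 2 (−0.04 and −0.08, with up to 0.08 for the other mice left out). Eif2s1, at −0.00, also turned positive with the hybridization controls (0.11), without mdm mutant 1 (0.03) and without wild type 1 (0.02). Causes were not tested beyond the construction of each alternative. No paired analysis was possible because the labels give each mouse a number of its own that no mouse of the other group shares. Members in the dimmer 50% of probe sets have the least signal over background. With that 50% left out, 1827 of 8246 probe sets were called. Of 19 ribosomal protein genes 6 were then higher and 1 lower, and of 41 initiation factor genes 8 were higher and 2 lower.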
